A study of Rattus norvegicus with 7 samples.

Results

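Potassium channel genes were followed over the cell types of the rat kidney and in animals with 1 kidney against animals with 2. The members are all genes of the deposited feature table whose symbol begins with Kcn, apart from Kcnj1 and Kcnj10. That rule rests on symbols alone and was set with earlier results of these data known. The members number 90 of 25399 genes. By structure they are 38 voltage-gated pore subunits, 17 accessory subunits, 14 two-pore-domain channels, 13 inward rectifiers and 8 pore subunits gated by calcium or sodium.

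Single nuclei were isolated from archived kidneys of HSRA rats at 4 weeks of age, from a section that held cortex and medulla. By their titles 3 samples came from animals with 1 kidney and 4 from animals with 2, here called 1-kidney and 2-kidney libraries. Elsewhere the labels speak of HSRA-S (3 animals) and HSRA-C (4 animals) without tying either name to a sample, and they name no treatment. HSRA is a rat line used as a model of nephron deficit, and each library was taken as 1 animal, as the labels imply.

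Potassium channels set the resting voltage of tubule cells and let potassium leave the cell again after the sodium pump has brought it in. In the proximal tubule they keep up the voltage that drives sodium-coupled transport. In the thick ascending limb and the distal convoluted tubule they recycle potassium, and in the connecting tubule and collecting duct they secrete it into the urine. In smooth muscle, pericytes, podocytes and macrophages the same gene families regulate voltage, calcium entry and contraction or cell volume. Accessory subunits do not conduct by themselves and change the gating or the trafficking of a pore.

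The 7 libraries held between 5581726 and 27069633 UMIs, counts of distinct captured transcripts, in 2263 to 5952 retained nuclei. The shallowest library was 1-kidney replicate 1. Pairs of libraries shared 3 to 14 barcodes. Clusters were made without any member gene, and 19 of 23 were named from marker genes, which gave 17 described classes and a cluster of cycling nuclei. The 4 unnamed clusters held 45.6% of the UMIs, with 20.6 ± 7.45% of nuclei in 1-kidney libraries (SD, n = 3) and 17.4 ± 3.85% in 2-kidney libraries (SD, n = 4), and the largest had a median of 9422 UMIs per nucleus. Two-kidney replicates 3 and 4 carry the set code P1117B in their library names and the other 5 libraries P1117. Set and group therefore cannot be told apart for those 2 libraries, and each test was repeated in set P1117 alone. Of the 17 classes 11 had at least 50 nuclei in every library and were compared between the groups.

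Members were rare transcripts. They held 256430 of 123785590 UMIs, or 0.207%, and Kcnk5 and Kcnq1 together held 51.3% of these, in counts that are not scaled for gene length. At least 1 UMI was found for 86 members. Kcna1, a voltage-gated subunit linked to magnesium uptake in the distal convoluted tubule, was among the 4 with a count of 0, beside Kcna5, Kcnk6 and Kcne5. A count of 0 allows a level of up to 0.0242 CPM (counts scaled to a total of 1000000 UMIs), at 3 counts over all nuclei and for counting error only. Within a single class the limit is higher, as in the distal convoluted tubule, which held 2.95% of the UMIs. In the named classes 41 members reached 100 UMIs and were ranked over the classes, and 42 had between 1 and 99. For 13 of the 41 the mean level in the leading class was at least 2-fold that of the next. Levels below are CPM of the class sum, as mean ± SD over libraries with at least 10 nuclei of the class. They describe classes drawn from these same nuclei, so no test is attached to them.

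**Figure D1:**
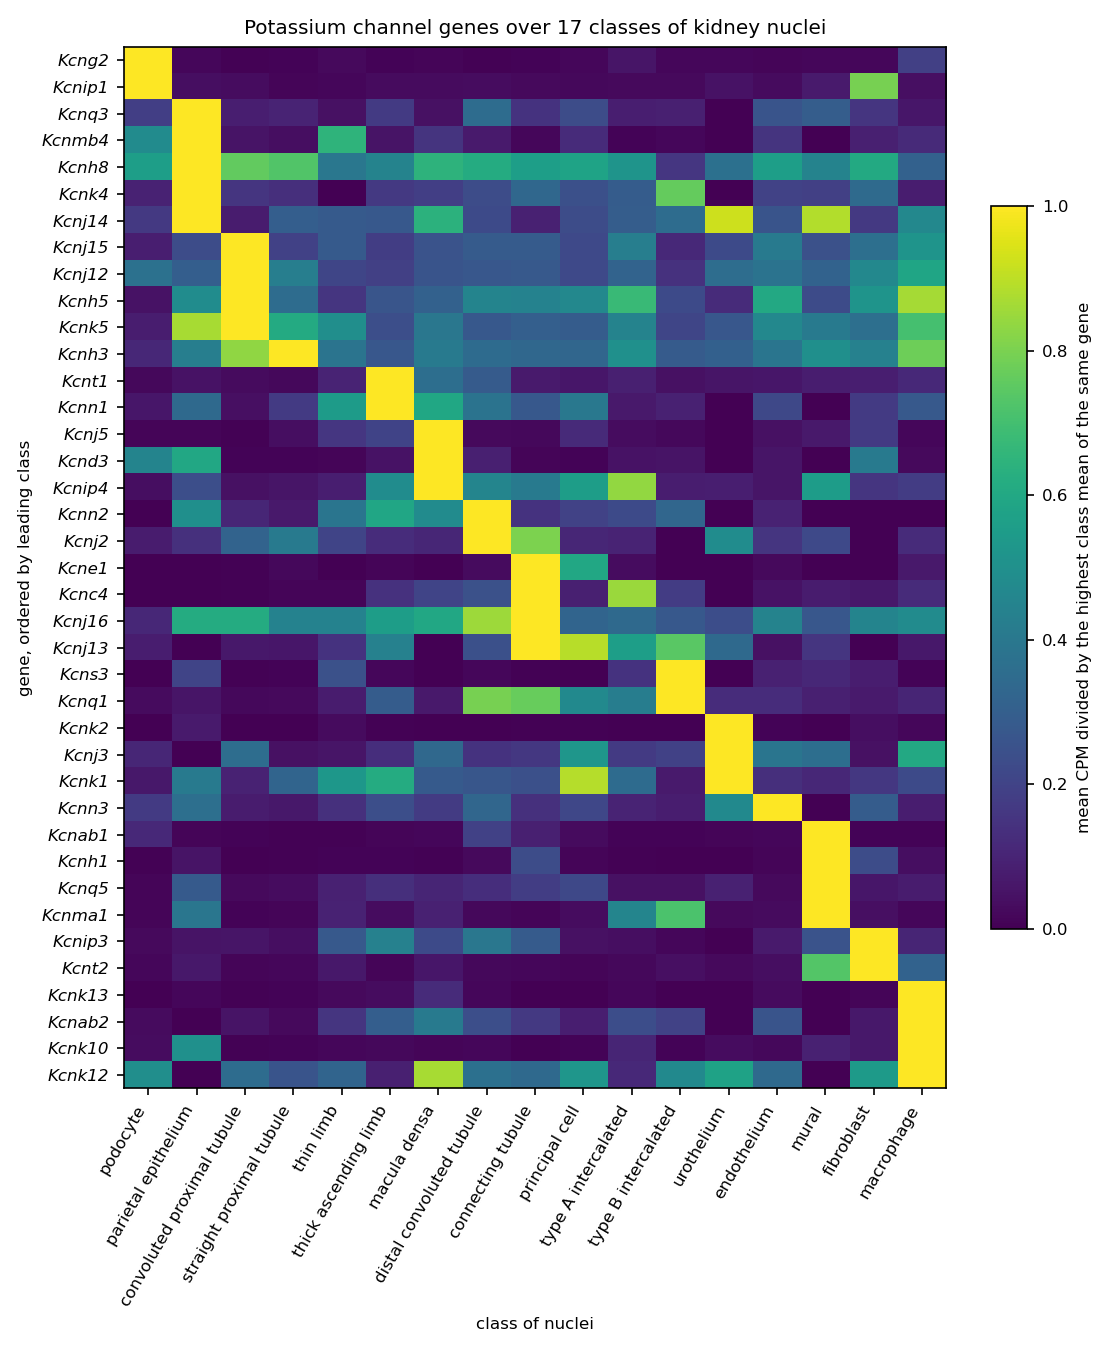
Mean CPM of 39 of the 41 ranked members (rows, ordered by leading class) in 17 classes of nuclei (columns), divided by the highest class mean of that gene, so that yellow is the leading class and dark blue is near 0. Kcng2 in podocytes, Kcnt1 in the thick ascending limb and Kcnk2 in the urothelium each stand well above all other classes, while the rows led by the proximal tubule are blue to green, not dark, in nearly all classes.

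Among the voltage-gated genes, Kcnq1 led in the distal nephron. Kcnq1 codes for a slowly gated channel pore that pairs with Kcne subunits. It reached 2484 ± 567 CPM in type B intercalated cells (lowest library 1957, median 2215, highest 3377) and led there in all 7 libraries. The distal convoluted tubule followed at 1979 ± 612 and the connecting tubule at 1905 ± 423, with libraries that overlapped those of type B cells. Principal cells held 1179 ± 217, type A intercalated cells 1055 ± 441 and the thick ascending limb 723 ± 227 CPM. Next to these, convoluted proximal tubule nuclei were at 55.2 ± 18.6 and straight proximal tubule nuclei at 61.2 ± 16.7 CPM (n = 7 each). The 2 libraries of set P1117B gave the highest Kcnq1 levels in type B intercalated cells (3377 and 3165), in the distal convoluted tubule (2827 and 2901) and in the connecting tubule (2644 and 2361).

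Kcne1, the accessory subunit that slows Kcnq1 currents, was found in 2 neighbouring segments. It was at 23.6 ± 6.83 CPM in the connecting tubule, with a lowest library of 15.7, a median of 23.2 and a highest of 37.2. Principal cells held 14.1 ± 8.89 CPM, and macrophages, next in order, 1.65 ± 4.36 from 2 UMIs. Type B intercalated cells, where Kcnq1 was highest, were not among the 3 leading classes of Kcne1. Kcns3, a silent subunit that modifies other voltage-gated pores, was highest in type B intercalated cells, at 63.3 ± 25.9 CPM, and 4.06-fold above the thin limb, the next class. Its lowest library there was 1-kidney replicate 1, at 11.5 CPM from a small sum, and the other 6 lay between 47.6 and 85.9.

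Podocytes and the macula densa each led in voltage-gated members. Kcng2, another silent subunit, was at 94.9 ± 41.1 CPM in podocytes (32.7 to 155) and 18.0 ± 12.7 in macrophages, and podocytes led in all 7 libraries. Kcnd3, the pore of a fast inactivating channel, was at 147 ± 50.4 CPM in the macula densa, the sensor cells at the end of the thick ascending limb. Parietal epithelium followed for Kcnd3 at 87.9 ± 47.2, podocytes at 66.1 ± 18.1 and fibroblasts at 60.7 ± 23.3 CPM, with overlapping libraries. Kcnip4, an accessory subunit of that pore, was also highest in the macula densa (91.4 ± 30.5), with type A intercalated cells at 76.4 ± 14.3 CPM within its spread. Kcna4 was seen in few counts and mostly in the distal convoluted tubule, at 8.38 ± 7.07 CPM from 31 UMIs. Kcnq3, a subunit of the M-type channel of neurons, led in parietal epithelium at 27.8 ± 25.8 CPM from 19 UMIs. Kcna10, a voltage-gated channel known from kidney, gave at most 0.130 CPM in any class.

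Sodium- and calcium-activated genes separated 3 sites. Kcnt1, a sodium-activated channel best known from neurons, was at 912 ± 138 CPM in the thick ascending limb, with a lowest library of 727, a median of 956 and a highest of 1093. The macula densa held 331 ± 76.6 and the distal convoluted tubule 260 ± 43.9 CPM, so the thick ascending limb stood 2.76-fold above the next class, in 7 of 7 libraries and with no overlap. The lowest class was the straight proximal tubule, at 20.7 CPM. The bases just upstream of the annotated start of Kcnt1 are shown because it is the member that marks this segment. They are the 250 bases before the RefSeq start on build GRCr8, chr3:29081089-29081338, plus strand, 5′ to 3′, with matches to the motifs named further on in capitals.
Kcnt1: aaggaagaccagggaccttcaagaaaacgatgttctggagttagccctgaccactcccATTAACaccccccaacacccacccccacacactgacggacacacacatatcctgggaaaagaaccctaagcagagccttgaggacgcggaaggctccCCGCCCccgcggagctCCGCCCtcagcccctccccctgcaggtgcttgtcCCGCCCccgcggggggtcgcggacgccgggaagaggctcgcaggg
It holds 1 match to the hepatocyte nuclear factor site and 3 to the GC box, read on either strand.

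Kcnma1 codes for the large-conductance channel opened by calcium and voltage, which carries flow-induced potassium secretion in the distal nephron and relaxes smooth muscle. Its leading class was the mural cells, at 502 ± 236 CPM (263 to 817). Type B intercalated cells held 360 ± 143, type A intercalated cells 229.0 ± 101.3 and parietal epithelium 197 ± 108 CPM, all with overlapping libraries. Principal cells and the connecting tubule were not among the 6 leading classes, and the convoluted proximal tubule was lowest at 4.24 CPM. Kcnmb4, an accessory subunit of Kcnma1, was low: 22.9 ± 20.1 CPM in parietal epithelium from 16 UMIs and 11.1 ± 14.5 in podocytes from 50 UMIs. Kcnn3, a small-conductance calcium-activated channel of endothelial relaxation, was at 32.4 ± 15.9 CPM in endothelium, 2.11-fold above the urothelium. Kcnn4, the intermediate-conductance channel of blood cells, was highest in macrophages (28.1 ± 12.3 CPM from 26 UMIs) in 7 of 7 libraries. Kcnt2, the close relative of Kcnt1, was at 121 ± 58.0 CPM in fibroblasts and 88.5 ± 79.9 in mural cells, which overlapped.

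Mural cells, the smooth muscle cells and pericytes of vessels, led 4 ranked members and were few, with 13 to 47 nuclei per library. Kcnab1, an accessory subunit that inactivates voltage-gated pores, was at 994 ± 197 CPM there (752 to 1331). The distal convoluted tubule followed at 190 ± 34.6, podocytes at 114 ± 45.1 and the connecting tubule at 85.9 ± 32.9 CPM, so that mural cells were 5.22-fold above the next class in all 7 libraries. Kcnh1 was at 257 ± 84.6 CPM and Kcnq5, an M-type subunit of vascular smooth muscle, at 216 ± 78.5, with the next classes at 59.8 ± 17.3 and 61.0 ± 23.4. Kcnk3, an acid-sensitive background channel, was at 168 ± 193 CPM from 51 UMIs, 13.4-fold above fibroblasts, and 1 library (2-kidney replicate 2, 588 CPM) set much of that mean. Kcnj8, the pore of the ATP-sensitive channel of vessels, was at 34.2 ± 23.6 CPM from 14 UMIs. The related Kcnj11 gave no class mean above 0.759 CPM.

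**Figure D2:**
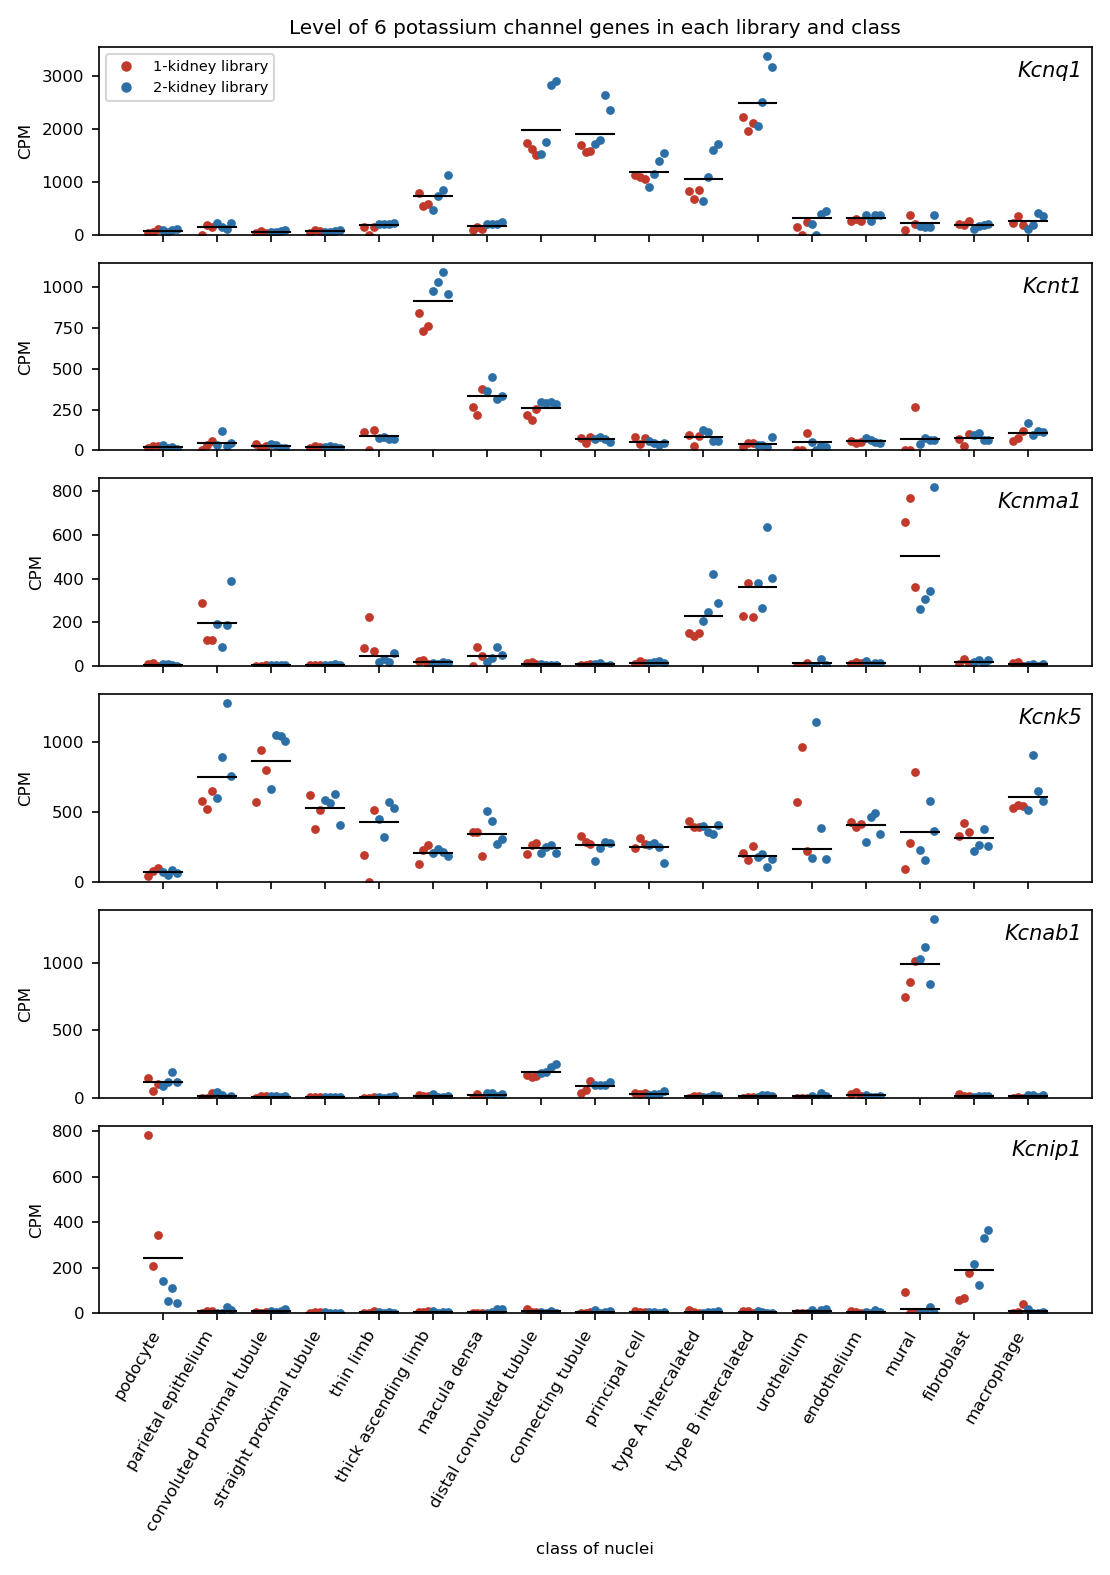
CPM (y axis, linear, from 0) of 6 members in each library (red points 1-kidney, blue points 2-kidney) and class of nuclei (x axis). Black lines are means over libraries with at least 10 nuclei of the class, and points of smaller sums are drawn too. Kcnt1 stands apart in the thick ascending limb and Kcnab1 in mural cells in all 7 libraries, Kcnk5 is spread over nearly all classes, and Kcnip1 is high in podocytes and fibroblasts.

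The proximal tubule led 7 ranked members, none by 2-fold, of which 5 are described. Kcnk5, an acid-sensitive two-pore-domain channel that supports bicarbonate reabsorption, was at 866 ± 194 CPM in the convoluted proximal tubule (569 to 1048, median 939). Parietal epithelium held 752 ± 263, macrophages 609 ± 139 and the straight proximal tubule 529 ± 99.1 CPM, and the libraries of these classes overlapped. Kcnj15, an inward rectifier of basolateral membranes, was at 261 ± 42.9 CPM in the convoluted proximal tubule, with macrophages next at 135 ± 56.8. Kcnh3 led in the straight proximal tubule, at 269 ± 31.1 CPM, with 225 ± 38.0 in the convoluted part. Kcnj12 (138 ± 42.6) and Kcnh5 (79.1 ± 64.8 CPM) led in the convoluted part, each with macrophages in the second place.

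The levels of these 5 genes over classes were set beside that of Slc34a1, the sodium-phosphate transporter of the proximal tubule. Slc34a1 RNA was at 41264 CPM in the convoluted proximal tubule, at 28336 in macrophages, 18903 in type A intercalated cells and 17796 in endothelium, and lowest in podocytes at 2670. Over the 17 class means the rank correlation (Spearman) with Slc34a1 was 0.90 for Kcnh5, 0.85 for Kcnj15, 0.78 for Kcnh3, 0.66 for Kcnk5 and 0.64 for Kcnj12. The points share libraries and depth and carry no p. Podocytes were the lowest class of Kcnh3, Kcnj15, Kcnh5 and Kcnk5. Kcnj12 differed, with type B intercalated cells lowest at 19.8 CPM and podocytes at 51.7 ± 16.3 CPM, close to the straight proximal tubule at 59.0 ± 10.2. Kcnk5 in parietal epithelium (752 CPM) stood near its level in the convoluted part (866) while Slc34a1 was at 9570 there against 41264. Free RNA was not subtracted, and its part in any of the levels outside the proximal tubule was not tested. For comparison the rank correlation was -0.13 for Kcnq1, 0.10 for Kcnt1 and -0.31 for Kcnma1.

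Kcnk5 is the most counted member and its upstream bases are given beside those of Kcnt1 to show what 2 genes of different segments share. They are chr15:4171375-4171624 on GRCr8, plus strand, from RefSeq, with motif matches in capitals.
Kcnk5: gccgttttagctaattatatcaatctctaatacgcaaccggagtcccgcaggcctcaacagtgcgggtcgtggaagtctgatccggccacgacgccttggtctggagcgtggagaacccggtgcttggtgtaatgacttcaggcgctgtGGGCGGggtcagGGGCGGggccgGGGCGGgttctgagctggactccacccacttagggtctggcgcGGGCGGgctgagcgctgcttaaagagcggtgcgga
It holds 4 matches to the GC box and none to the hepatocyte nuclear factor site. Motifs were searched on both strands, in windows that held only the 250 bases before the start. They were GTTAAT, part of the site of hepatocyte nuclear factor HNF1, and GGGCGG, the GC box of SP and KLF factors. The others were TATAAA, the TATA box, and CAAAGTCC, part of a site of HNF4. RefSeq held windows for 60 members. Of their 65 windows 6.15% held GTTAAT, beside 6.45% of all 33469, and 1.54% held CAAAGTCC, beside 1.14%. GGGCGG stood in 49.2% of members' windows and 30.5% of all, TATAAA in 1.54% and 12.9%, and the median GC content was 59.6% and 51.2%. A match describes letters and is not a bound site.

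The other two-pore-domain and inward rectifier genes had low levels or narrow sites. Kcnk2, a stretch-sensitive channel, was at 273 ± 82.1 CPM in the urothelium (n = 4 libraries), 13.9-fold above parietal epithelium. Kcnk1, a weak background channel, was at 143 ± 37.4 CPM in urothelium (n = 4), 127 ± 47.3 in principal cells and 87.6 ± 33.1 in the thick ascending limb, which overlapped. Kcnk13, a channel of macrophage-like brain cells, was at 101.4 ± 52.15 CPM in macrophages, 8.22-fold above the macula densa. Kcnj16 forms mixed channels with other inward rectifiers at the basolateral membrane of distal tubule cells. It was highest in the connecting tubule (57.5 ± 24.9) and the distal convoluted tubule (48.9 ± 28.4 CPM), with no gap to the next classes. Kcnj5, known from heart and adrenal cells, was at 76.8 ± 52.9 CPM in the macula densa from 73 UMIs and 15.5 ± 6.30 in the thick ascending limb, and 1 library, 1-kidney replicate 1, gave a count of 0 in the macula densa. Kcnj2 stayed under 7 CPM in each class, at most 6.75 ± 4.35 in the distal convoluted tubule. Kcnip3, a calcium-binding accessory subunit, led in fibroblasts at 47.8 ± 24.5 CPM, 2.27-fold above the thick ascending limb. Kcnh8 reached 100 UMIs but stayed under 14 CPM in each class.

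The comparison of 1-kidney with 2-kidney libraries asks which channel genes differ with the number of kidneys. Counts were summed per library and tested with edgeR, with p-values adjusted over all genes of the comparison, and a gene counted as called at an adjusted p under 0.05. In the sum over all retained nuclei 55 members were tested and 0 were called, beside 0% of the 14940 genes tested. At an unadjusted p under 0.05 there were 14 members of 55, beside 20.5% of all genes, and DESeq2 called 3 members beside 3.25% of all genes. The median log2 fold change of 1-kidney over 2-kidney was -0.07 over the members and -0.01 over all genes, and 23 of the 55 were above 0. Kcnq3 had the smallest p. It was at 6.27, 5.19 and 5.79 CPM in the 1-kidney and 3.88, 2.77, 2.51 and 2.25 in the 2-kidney libraries, without overlap, a log2 fold change of 1.05 ± 0.23 (SE, adjusted p = 0.162). In such a sum, fewer nuclei of a class and less RNA per nucleus cannot be told apart.

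Within the 11 classes 149 pairs of member and class were tested and 4 were called, beside 0.370% of the 80598 pairs of all genes. At an unadjusted p under 0.05 there were 31 pairs, or 20.8%, beside 15.1% of all pairs. By class these were 3 of 17 members in the connecting tubule beside 19.2% of all genes, 3 of 11 in the convoluted proximal tubule beside 12.4%, 3 of 15 in the distal convoluted tubule beside 14.7%, 3 of 14 in endothelium beside 13% and 4 of 13 in fibroblasts beside 20%. They were 2 of 10 in podocytes beside 9.77%, 3 of 16 in principal cells beside 18.4%, 2 of 18 in the straight proximal tubule beside 14.7%, 3 of 16 in the thick ascending limb beside 14.7%, 4 of 12 in type A intercalated cells beside 14.7% and 1 of 7 in type B intercalated cells beside 14.3%. Of the 31 pairs 8 were of a single gene, Kcnh5, in classes that share the same 7 libraries. The calls were Kcnip1 in podocytes, Kcnt2 in fibroblasts, and Kcnh5 in the connecting tubule and in type A intercalated cells. In no class were more than 1 of its 7 to 18 tested members called. Over the 149 pairs 76 log2 fold changes were above 0, with a median of 0.01, beside medians of all genes between -0.01 and 0.01 in the 11 classes.

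**Figure D3:**
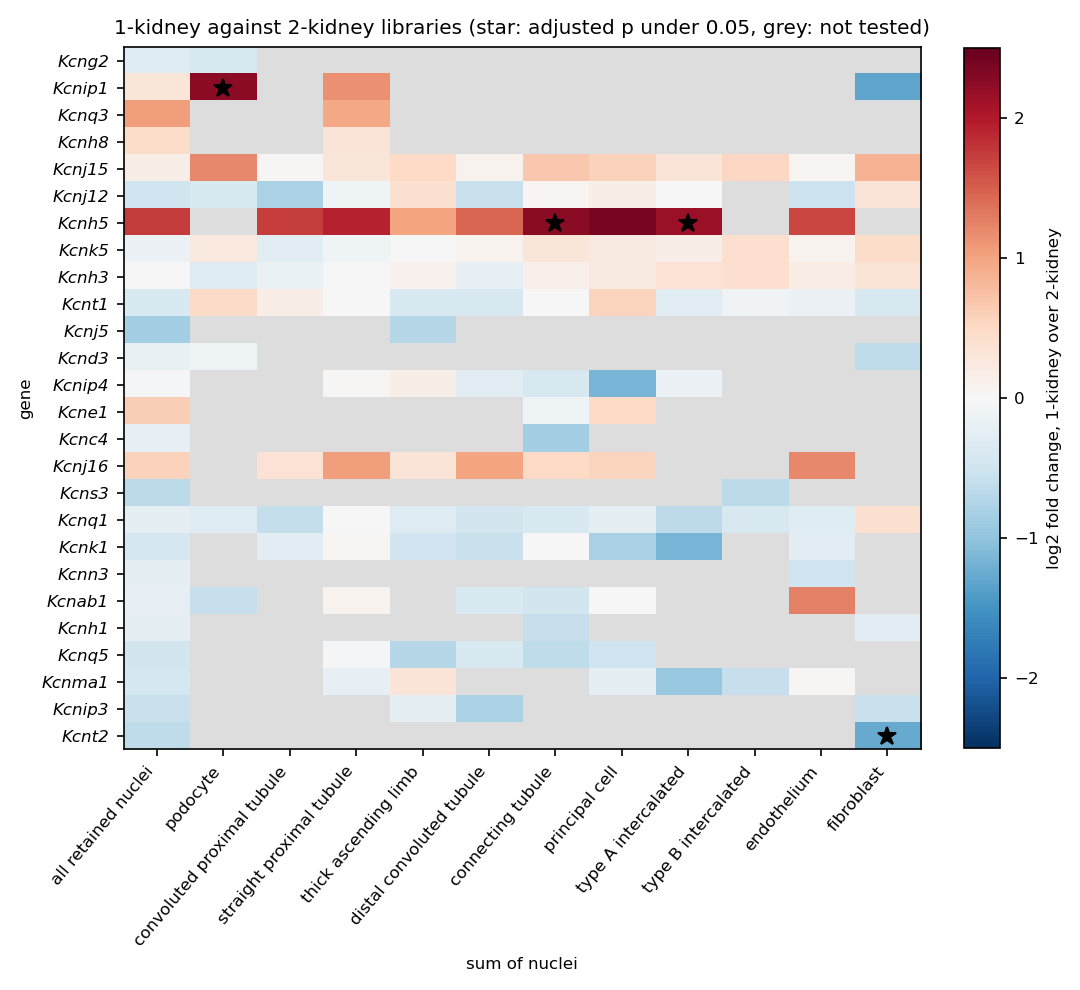
Log2 fold change of 1-kidney over 2-kidney libraries (colour, red higher and blue lower in 1-kidney) for members tested in at least 1 class (rows, 2 members left out) in the sum of all retained nuclei and in 11 classes (columns). Stars mark adjusted p under 0.05 and grey marks pairs that were not tested. The row of Kcnh5 is red in each of its 8 tested classes, and Kcnip1 is red in podocytes and blue in fibroblasts.

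Kcnip1 rose in podocytes of 1-kidney libraries. It codes for a calcium-binding accessory subunit that brings the Kcnd pores to the membrane and slows their inactivation. Its mean was highest in podocytes, at 241 ± 260 CPM, and next in fibroblasts at 192 ± 122, but podocytes were above fibroblasts in 3 of 7 libraries only. In podocytes it was at 784, 208 and 343 CPM in 1-kidney replicates 1 to 3 and at 141, 53.6, 109 and 47.4 in 2-kidney replicates 1 to 4, from 20 to 126 UMIs per library. The groups did not overlap, and the highest value, 784, came from the library with the fewest podocytes, 55. The log2 fold change was 2.23 ± 0.39 (SE, adjusted p = 0.0327), or 4.69-fold, beside 0.0488% of 6152 genes called in podocytes. In that highest library 18 of 55 podocytes held a Kcnip1 UMI, 32.7% (exact 95% interval 20.7 to 46.7%, counting error only, median 1598 UMIs per nucleus). Of its thick ascending limb nuclei 2 of 314 did, or 0.637% (0.0772 to 2.28%, median 841 UMIs), without correction for depth. The share of podocytes with a UMI was 15.1% (10.2 to 21.2%) and 15.7% (9.55 to 23.6%) in 1-kidney replicates 2 and 3. In 2-kidney replicates 1 to 4 it was 9.15% (5.21 to 14.6%), 4.40% (1.21 to 10.9%), 8.26% (5.05 to 12.6%) and 6.67% (3.69 to 10.9%), so these intervals overlapped those of 1-kidney replicates 2 and 3. In the convoluted proximal tubule the share lay between 0.833% and 7.46% over the libraries. Its highest value, in 2-kidney replicate 4 (5.60 to 9.69%), was above that of the podocytes of that library. Fibroblasts of the 2-kidney libraries held a UMI in 15.0 to 19.1% of nuclei.

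In fibroblasts the same gene pointed the other way. Kcnip1 was at 58.1, 66.6 and 177 CPM in the 1-kidney and 215, 126, 332 and 366 in the 2-kidney libraries, where 1 value of each group crossed over. The log2 fold change was -1.32 ± 0.37 (SE, adjusted p = 0.0593), which was not called. Fibroblast markers in the same nuclei were below 0 in 5 of 5 tested, with 3 called and a median log2 fold change of -0.89. Proximal markers were above 0 there in 10 of 10 tested, with 5 called, and the part of either list was not tested. The ratio of podocyte to fibroblast CPM within a library was 13.5, 3.12 and 1.94 in the 1-kidney and 0.656, 0.425, 0.329 and 0.130 in the 2-kidney libraries. It was above 1 in 3 of 3 and below 1 in 4 of 4. A fit over both classes with the library as a block, added after these values were seen, gave a difference in effect of 3.45 ± 0.42 (log2, SE, edgeR adjusted p = 1.53e-05), beside 0.22% of 7275 genes called. In set P1117 alone that difference was 2.55 ± 0.43 (adjusted p = 0.00126), and without each library in turn it lay between 2.81 and 3.85 and was called each time.

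The podocyte call did not hold in each subset of the libraries. In set P1117 alone the adjusted p was 0.408, with the set as a term 0.274, with DESeq2 0.142, and without 1-kidney replicate 1 0.260. It was also lost without 1-kidney replicate 3 (0.1006), 2-kidney replicate 2 (0.166) and 2-kidney replicate 3 (0.09996). Podocyte markers, 8 of 8 tested, summed to 28566 to 29448 CPM in the 1-kidney and 30675 to 35530 in the 2-kidney podocytes, with 0 called and 1 above 0. Proximal markers summed to 4984 to 7678 and 2641 to 7398 CPM there, with 10 of 10 tested above 0 and 0 called. Their part in the result was not tested. Kcng2, which led in podocytes in all 7 libraries, had a log2 fold change of -0.41 there (adjusted p = 0.77), and Kcnd3, the pore that Kcnip1 binds, -0.11 (adjusted p = 0.926).

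**Figure D4:**
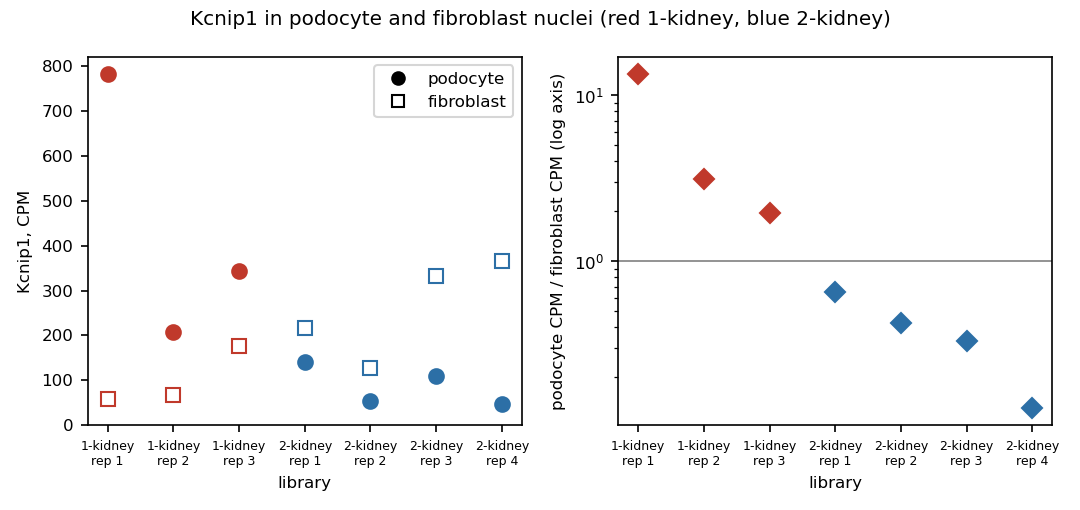
Kcnip1 in CPM (left, linear axis from 0) in podocytes (filled circles) and fibroblasts (open squares) of each library, and the podocyte to fibroblast ratio within each library (right, log axis), red for 1-kidney and blue for 2-kidney. The ratios of the 3 red libraries lie between 1.94 and 13.5, above the line at 1, and those of the 4 blue libraries between 0.130 and 0.656.

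The upstream bases of Kcnip1 are given because it is the member with the largest difference in effect between 2 classes. They are chr10:19093026-19093275 on GRCr8, minus strand, from RefSeq, and hold no match to the 4 motifs.
Kcnip1: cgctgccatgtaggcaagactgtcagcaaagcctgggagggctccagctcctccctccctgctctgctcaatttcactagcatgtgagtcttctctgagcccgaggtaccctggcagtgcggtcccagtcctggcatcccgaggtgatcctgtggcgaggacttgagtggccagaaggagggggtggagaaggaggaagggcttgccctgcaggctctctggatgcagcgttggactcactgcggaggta
RefSeq places Kcnmb1 across the same stretch as Kcnip1. Kcnmb1 had 5 UMIs in all nuclei.

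Kcnt2 fell in fibroblasts of 1-kidney libraries. It codes for a channel opened by sodium and chloride. Its levels were 69.7, 34.7 and 103 CPM against 129, 187, 129 and 194, without overlap, from 6 to 100 UMIs per library. The log2 fold change was -1.26 ± 0.33 (SE, adjusted p = 0.0427), 2.39-fold lower, beside 3.48% of 6500 genes called in fibroblasts. Fibroblast markers moved too. Of the 7 listed 5 were tested, 5 were below 0 and 3 fell, and their sum was 1080 to 1184 CPM in the 1-kidney and 1649 to 2447 in the 2-kidney libraries. The proximal markers in the same nuclei were above 0 in 10 of 10 tested, with 5 called and sums of 24756 to 32171 and 8830 to 17892 CPM. Mural markers, another class with Kcnt2, summed to 405 to 717 and 774 to 1192 CPM. Their part in the fall of Kcnt2 was not tested. The call was lost in set P1117 alone (adjusted p = 0.0912), with the set as a term (0.0705), without 1-kidney replicate 1 (0.108) or 2 (0.283), without 2-kidney replicate 2 (0.0639), 3 (0.0534) or 4 (0.0944), with doublets kept (0.263), with at least 500 genes per nucleus (0.0749) and at clustering resolution 2 (0.116), so in 10 of 16 alternatives.

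Kcnh5, a voltage-gated channel of the ether-a-go-go family, was higher in 1-kidney libraries wherever it was tested. In the connecting tubule it was at 116, 53.4 and 23.1 CPM against 14.3, 20.9, 8.19 and 8.74, from 5 to 34 UMIs per library, without overlap. The log2 fold change was 2.26 ± 0.48 (SE, adjusted p = 0.0456), beside 0.344% of 6982 genes called. In type A intercalated cells the levels were 165, 87.1 and 38.8 against 32.8, 19.4, 17.6 and 13.2 CPM, a log2 fold change of 2.16 ± 0.46 (adjusted p = 0.0498), beside 0.299% of 6019 genes called. In the sum of all nuclei it was at 120, 85.4 and 48.2 against 41.8, 31.6, 15.5 and 13.9 CPM, with a log2 fold change of 1.76 ± 0.39 that was not called (adjusted p = 0.162). All 8 tested classes had log2 fold changes above 0, from 0.98 to 2.38. Each had an unadjusted p under 0.05, beside 15.1% of all pairs of gene and class. They come from the same 7 libraries and are not separate checks of Kcnh5. The proximal tubule, which leads this gene, gave 1.92 ± 0.38 (straight, adjusted p = 0.219) and 1.72 ± 0.43 (convoluted, adjusted p = 0.299).

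Most proximal markers were above 0 too in the connecting tubule and in type A intercalated cells, where Kcnh5 was called. In the connecting tubule all 10 tested of 11 proximal markers were above 0 and 1 rose, with sums of 17871 to 24981 CPM in the 1-kidney and 7768 to 15151 in the 2-kidney libraries. In type A intercalated cells 9 of 10 were above 0 and 1 rose, at 27117 to 38760 and 13001 to 27485 CPM. In the sum of all nuclei Kcnh5 was lowest in set P1117B, and in set P1117 alone both calls were lost (adjusted p = 0.268 and 0.297), as with the set as a term (0.213 and 0.202). Both were also lost without 1-kidney replicate 1 (0.271 and 0.290) or 2 (0.155 and 0.157) and without 2-kidney replicate 3 (0.151 and 0.144) or 4 (0.0766 and 0.144). The call in type A intercalated cells was lost without 2-kidney replicate 2 (0.0678), with doublets kept (0.0984) and at clustering resolution 2 (0.0715) too, and that in the connecting tubule when clustered with the members (0.0746). How much of the difference belongs to connecting tubule or intercalated nuclei was not tested.

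**Figure D5:**
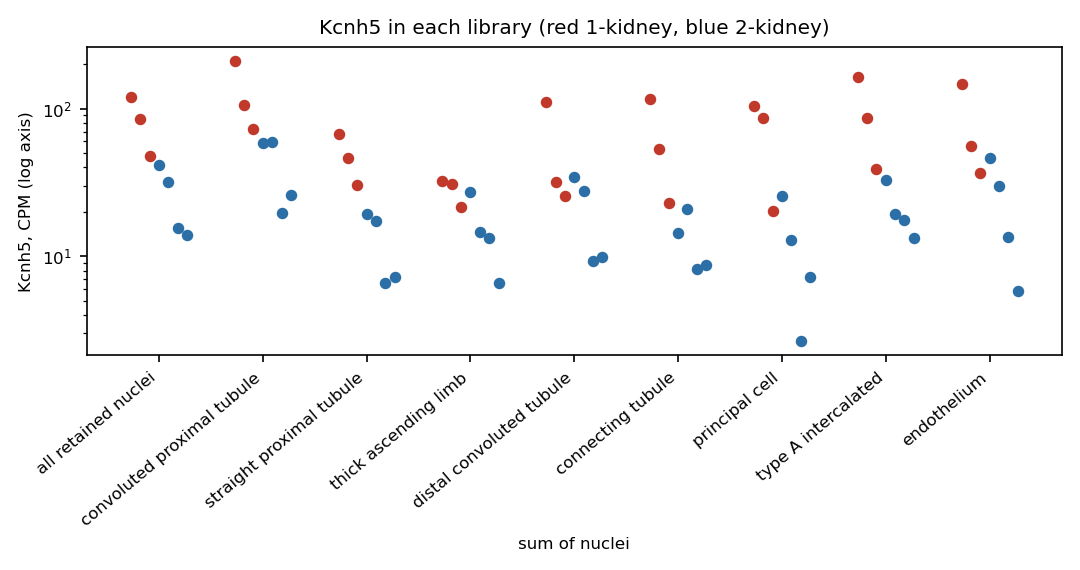
Kcnh5 in CPM (y axis, log scale) in each library for the sum of all retained nuclei and the 8 classes in which it was tested (x axis), red for 1-kidney and blue for 2-kidney. In all retained nuclei the red points lie at 48.2 to 120 and the blue at 13.9 to 41.8 CPM, and the order of the libraries is similar from class to class.

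No other member was called in any class. Kcnma1 in type A intercalated cells was at 152, 137 and 152 CPM in the 1-kidney and 205, 246, 420 and 290 in the 2-kidney libraries, without overlap (log2 fold change -0.95 ± 0.26, SE, adjusted p = 0.132). In type B intercalated cells, where it had the smallest p of the members, the values were 231, 379 and 225 against 379, 266, 637 and 404 (-0.58 ± 0.27, adjusted p = 0.327). Kcnt1 in its own segment, the thick ascending limb, was at 843, 727 and 760 against 975, 1029, 1093 and 956 CPM (-0.37 ± 0.18, adjusted p = 0.343). These groups did not overlap, and the difference did not pass the adjustment. Kcnj12 in the convoluted proximal tubule was at 73.9, 121 and 93.0 against 178, 160, 181 and 161 (-0.80 ± 0.19, adjusted p = 0.299).

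Kcnj16 had the smallest p in the distal convoluted tubule, at 107, 59.0 and 41.2 against 45.1, 36.9, 34.998 and 18.3 CPM, with overlap (0.99 ± 0.35, adjusted p = 0.224). Its log2 fold change was above 0 in 7 of 7 tested classes, from 0.33 to 1.21. Kcnj15 was above 0 in 11 of 11, from 0.03 to 1.20, with 0 called for either gene. These classes share the same 7 libraries and are not separate checks of either gene. Most tested proximal markers were above 0 in each of the 11 classes too, and their part was not tested. Kcnh5 had the smallest p in principal cells (2.38 ± 0.62, adjusted p = 0.109) and endothelium (1.67 ± 0.53, adjusted p = 0.213). Kcnq1 was below 0 in 10 of 11 tested classes, from -0.66 to 0.40, with none called, and at an unadjusted p under 0.05 in 2. The 2 libraries of set P1117B, both 2-kidney, gave its highest levels in type B intercalated cells, the distal convoluted tubule and the connecting tubule. Set and group cannot be told apart for them, and the classes are not separate checks here either.

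Genes that act with these channels were taken as a list of 30: the sodium pump, the WNK and SPAK kinases, the sodium and chloride carriers and channels, and the aldosterone pathway. Over the 11 classes 237 pairs of such a gene and a class were tested, 3 rose and 0 fell, beside 0.370% of all pairs of gene and class. The rises were all of Sgk1, the kinase induced by aldosterone, which raises sodium uptake and so potassium secretion. In the connecting tubule Sgk1 was at 458, 387 and 405 CPM against 232, 226, 174 and 215 (log2 fold change 0.99 ± 0.18, SE, adjusted p = 0.0152). In type B intercalated cells it was at 138, 116 and 104 against 48.6, 52.0, 38.5 and 45.3 (1.36 ± 0.31, adjusted p = 0.0484), and in fibroblasts at 174, 263 and 285 against 155, 104, 138 and 130 (0.93 ± 0.23, adjusted p = 0.0329). In type B intercalated cells 0.392% of 4853 genes were called. Sgk1 was above 0 in 11 of 11 classes, from 0.47 to 1.36. Nr3c2, the aldosterone receptor itself, was at 1340, 1325 and 2031 CPM in the connecting tubule against 2897, 2531, 3397 and 2643 (-0.86 ± 0.20, adjusted p = 0.0584), which was not called. The classes are parts of the same 7 libraries and are not separate checks of Sgk1. In set P1117 alone all 3 calls were lost (adjusted p = 0.0682, 0.374 and 0.0946), and they were lost without each 1-kidney library in turn (0.0522 to 0.291). In all, the call was lost in 5 of 16 alternatives in the connecting tubule, 11 of 16 in fibroblasts and 8 of 16 in type B intercalated cells. Proximal markers in type B intercalated cells were above 0 in 10 of 10 tested with 1 called, at 8651 to 10851 CPM in the 1-kidney and 3149 to 8292 in the 2-kidney libraries. Those of the connecting tubule and of fibroblasts, given above, were higher in 1-kidney libraries too, and their part in the rise of Sgk1 was not tested.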

How the data were processed

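The data are single-nucleus RNA counts of 7 rat kidney libraries, made on the 10x platform (3′ reads, chemistry 3.1) with 5000 nuclei aimed for in each, per the labels' protocols. The authors deposited a matrix of UMI counts for every library, in whole numbers, and the submitters' processing notes name Cell Ranger 7.0. Genome build, annotation and strand setting were not given in the sources used here, so counts of overlapping genes are uncertain. Groups came from the sample titles. Replicate numbers follow accession order and only name a library. Nothing in the labels beyond the animal numbers says how libraries relate, so p-values measure the spread between these 7.

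Of 37048 barcodes, any with under 200 genes or over 5% of UMIs from mitochondrial genes was dropped. Doublets were scored with the Scrublet method in scanpy 1.11.5. The automatic threshold marked at most 4 barcodes in a library and had not worked, so the highest scores were removed up to the rate expected from the number of barcodes, 1659 in all. The 31227 nuclei left were scaled to 10000 counts each, and Leiden clustering (leidenalg 0.10.2, resolution 1) on 20 neighbours in 30 principal components of the 2000 most variable genes, members left out, gave 23 clusters. A cluster was named when at least 3 markers were at least 2-fold and the first of them at least 4-fold above other nuclei. Proximal clusters were told apart by markers of the convoluted and straight parts relative to the median cluster. Both rules were set after seeing the data. The unnamed nuclei entered the sums over all nuclei alone. Free RNA was not subtracted.

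Counts were summed per library and class and tested with edgeR 4.0.16 (quasi-likelihood, TMM factors, filterByExpr, two-sided) in R 4.3.3, with Benjamini-Hochberg adjustment over all genes of a comparison. DESeq2 1.42.0, other size factors, no filter, library set, left-out libraries and other cluster settings were alternatives. The scripts were tested on simulated data. Genes named with values were known kidney potassium channels, the 25 members with the most UMIs, the member that stands out most in each class, and in each comparison the called members and that with the smallest p, and 2 members that these rules name are not reported here. The members and lists were chosen with earlier results of these data known. All 90 members matched the RefSeq gene table of build GRCr8 by symbol, which was used for promoter sequences and for names of neighbouring genes. Intervals are exact (Clopper-Pearson).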

Additional observations from a re-analysis of the deposited data

Results flagged for a closer look

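The effect of the 1-kidney group on Kcnip1 differed between podocytes and fibroblasts by 3.45 ± 0.42 on the log2 scale (SE, edgeR adjusted p = 1.53e-05 over 7275 genes, 16 of them called). The rise in podocytes was called but lost in 7 of 16 alternatives, and the lower level in fibroblasts was not called (adjusted p = 0.0593), with 1 value of each group crossing over. The ratio between the 2 classes was above 1 in 3 of 3 1-kidney and below 1 in 4 of 4 2-kidney libraries. The comparison was chosen after the class results were seen, so it is not independent of them. Among 15 values checked, no library of the 4 2-kidney libraries stood apart from the others by Dixon's test. The 1-kidney libraries were not checked in this way.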

How the results depend on the processing

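In the sum over all retained nuclei 0 members were called in 13 of 14 alternatives, and DESeq2 called 3. Within the classes 4 pairs were called beside 0.370% of all pairs of gene and class. Without the filter on low counts 16 of 693 were called, the 4 among them, beside 1.21% of all pairs. In set P1117 alone 0 were called. With the set as a term 1 was called, Kcnj15 in fibroblasts, which was not among the 4. The count was 1 with doublets kept, 1 with at least 500 genes per nucleus and 1 at clustering resolution 2, each time Kcnip1 in podocytes, and 2 when clustered with the members, both among the 4. It was 0 to 7 when each library was left out in turn. DESeq2 called 3 beside 1.08%, of which 1 was among the 4, Kcnt2 in fibroblasts, and another was Kcnip1 in fibroblasts. Other size factors called the same 4. The number of members with a leading class at least 2-fold above the next stayed between 12 and 16 over 12 alternatives, beside 13. The 15 single results (12 of members and 3 of Sgk1) kept their direction in all 233 alternatives. In 57 of these they lost the threshold and in 6 they passed it. The remaining 170 stayed on their side of it or had no adjusted p-value. Among the 170 are 8 for which DESeq2 gave none, so these show nothing about the threshold. Subsets of libraries hold fewer samples, and otherwise the cause was not tested. Kcnh5 in the connecting tubule was not tested under 3 of the class alternatives, and in type A intercalated cells under 2. No paired analysis was possible because the replicate numbers follow accession order and pair no animals. Levels resting on under 20 UMIs in a class are limited by depth.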

Other observations

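The 4 unnamed clusters are described by CPM of their pooled UMIs, beside means over the 7 libraries of 553 for Kcnk5, 470 for Kcnq1 and 140 for Kcnt1 in all retained nuclei. In the largest (doublet score 0.1014 and 9422 UMIs, medians over nuclei) Kcnk5 was at 691, Kcnq1 at 422 and Kcnt1 at 151 CPM. Cluster 5, with haemoglobin genes among its leading genes, had Kcnk5 at 480, Kcnq1 at 362 and Kcnt1 at 150 CPM. Both lay nearer to the values of all nuclei than the other 2 did. The largest itself held 40.6% of the UMIs of all nuclei, so its nearness is in part built in. Cluster 16 had Kcnk5 at 839 CPM with Kcnq1 at 51.8 and Kcnt1 at 18.7. Cluster 19 had Kcnk5 at 724, Kcnt1 at 301 and Kcnq1 at 297 CPM. Whether the genes were found in the same single nuclei was not tested.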
